A study of Mus musculus with 8 samples.

Results

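The proteoglycans and perineuronal net genes described here are 10 genes chosen by name: the lecticans Acan, Bcan, Ncan and Vcan, the transmembrane proteoglycans Cspg5 and Ptprz1, the tenascins Tnc and Tnr, and the link proteins Hapln1 and Hapln4. All 10 were found by symbol in both deposited tables, among 54532 listed genes in the table of PTS + RS and RS and 28229 in the table of RGFP109 and NaCl, and all 10 passed the filter on low counts in each. RNA-seq had been performed on 8 brain libraries of male C57BL/6 mice, 2 per group, all labelled Day 21. The methods give an approximate age for the mice of a behavioural test, but the age of the sequenced mice and whether a library holds a single mouse or a pool are not given in the sources used here. In the RS group, mice without stroke were held in a tube for a part of each day (restraint stress). In the PTS + RS group, restraint stress followed a photothrombotic stroke, in which light on the skull after Rose Bengal clots the vessels of the cortex below. The RGFP109 and NaCl groups were PTS + RS mice as well, given either the class I histone deacetylase inhibitor RGFP109 (60 mg/kg under the skin, once a day for 2 weeks by the labels) or the control that the labels call NaCl and the study calls vehicle. Restraint stress is thus shared by all 4 groups, and stroke by all but RS. By the labels, replicate 2 of RGFP109 and of NaCl is amygdala and the other 6 libraries are cortex. The study also describes a longer course of RGFP109, and which course the sequenced mice had is not given in the sources used here.

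Lecticans are chondroitin sulfate proteoglycans that bind hyaluronan at one end and tenascins at the other, and link proteins lock them onto the hyaluronan chain. Around parvalbumin interneurons and some other neurons this matrix condenses into perineuronal nets, of which aggrecan (Acan), link protein 1 (Hapln1), brain link protein 2 (Hapln4) and tenascin-R (Tnr) are known components. Around a lesion, reactive astrocytes and oligodendrocyte precursors deposit chondroitin sulfate proteoglycans in the glial scar, a matrix known to hold back axon growth.

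The genes also lie together in the genome, as the coordinates of the deposited tables (GRCm38) show. The nearest link protein gene to Ncan (chromosome 8, 70093085 to 70120873) was Hapln4 (70083457 to 70090862), on the other strand with a gap of 2222 bp. Vcan (chromosome 13, 89655312 to 89742509) and Hapln1 (89539796 to 89611652) were 43659 bp apart, again on opposite strands. Acan (chromosome 7, 79053483 to 79115099) ended 2 bp before Hapln3, and Bcan (chromosome 3, 87987531 to 88000230) was 21519 bp from Hapln2. Between the genes of each pair 0 other genes were listed, so that each lectican gene had a link protein gene as its neighbour.

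Vcan and Ptprz1 were higher in the PTS + RS libraries than in the RS libraries, and Acan varied most among the libraries. Promoter sequences are shown for these genes, whose levels the results turn on. They are the 250 bases before the RefSeq start site (GRCm38.p6), 5′ to 3′ on the strand of the gene, with capitals for matches to the GC box GGGCGG on either strand. Entries were found for 8 of the 10 genes, and Cspg5 and Hapln4 had none.
Vcan, chr13:89742513-89742762, minus strand: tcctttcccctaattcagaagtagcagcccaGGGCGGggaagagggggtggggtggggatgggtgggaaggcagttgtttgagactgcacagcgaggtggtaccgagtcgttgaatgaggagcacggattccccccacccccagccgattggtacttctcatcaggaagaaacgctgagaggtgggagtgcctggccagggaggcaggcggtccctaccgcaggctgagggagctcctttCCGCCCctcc
Ptprz1, chr6:22875252-22875501, plus strand: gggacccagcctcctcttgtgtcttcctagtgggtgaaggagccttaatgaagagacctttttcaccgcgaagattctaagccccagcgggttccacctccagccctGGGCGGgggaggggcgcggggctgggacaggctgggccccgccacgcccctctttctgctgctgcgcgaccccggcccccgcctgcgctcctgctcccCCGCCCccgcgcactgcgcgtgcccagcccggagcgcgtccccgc
Acan, chr7:79052976-79053225, plus strand: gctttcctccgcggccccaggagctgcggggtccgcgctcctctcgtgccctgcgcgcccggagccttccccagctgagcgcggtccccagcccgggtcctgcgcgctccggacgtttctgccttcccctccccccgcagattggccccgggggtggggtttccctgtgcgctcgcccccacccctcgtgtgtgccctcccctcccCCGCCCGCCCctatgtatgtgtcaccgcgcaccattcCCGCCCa
The stretch held 2 GC boxes in Vcan, 2 in Ptprz1 and 3 in Acan, some of which overlap in Acan, and 32.7% of the 32851 promoters in the table held at least 1. GC content was 62.4% in Vcan, 71.6% in Ptprz1 and 74.4% in Acan. The AP-1 motif TGANTCA (in 6.75% of all promoters) and the TATA box TATAAA (in 12.4%), searched on both strands, had 0 matches in these 3 sequences.

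Before the results, the libraries that stand apart have to be named. The libraries held 15902013 to 21712033 counts each. A list of 10 olfactory bulb markers, written after the data were seen, summed to 1940 CPM (counts scaled to the normalised size of the library) in NaCl replicate 1, labelled cortex, against 124 to 166 CPM in the other 7 libraries. S100a5 had 1131 counts there and 0 counts in each of the others, a count that allows up to 3 counts. The 2 amygdala-labelled libraries held 1120 and 1240 CPM of 8 striatal neuron markers, against 123 to 202 CPM in the other 6. Their sum of 8 amygdala markers (274 and 305 CPM) was below that of the cortex-labelled libraries (396 to 748 CPM), and that of 8 cortex markers (791 and 878 CPM) was above (494 to 585 CPM). In the fit of the RGFP109 and NaCl libraries, 4 of the 8 amygdala markers were higher with the amygdala label and 4 were lower. The lower sum is thus not shared by the whole list. Given the olfactory bulb and striatal markers, the tissue labels are used only as names. In the first table, 8 choroid plexus markers summed to 49.7 CPM in PTS + RS replicate 2 and to between 1630 and 3830 CPM in the other 3 libraries. Their part in the results below was examined only by leaving libraries out.

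**Figure D1:**
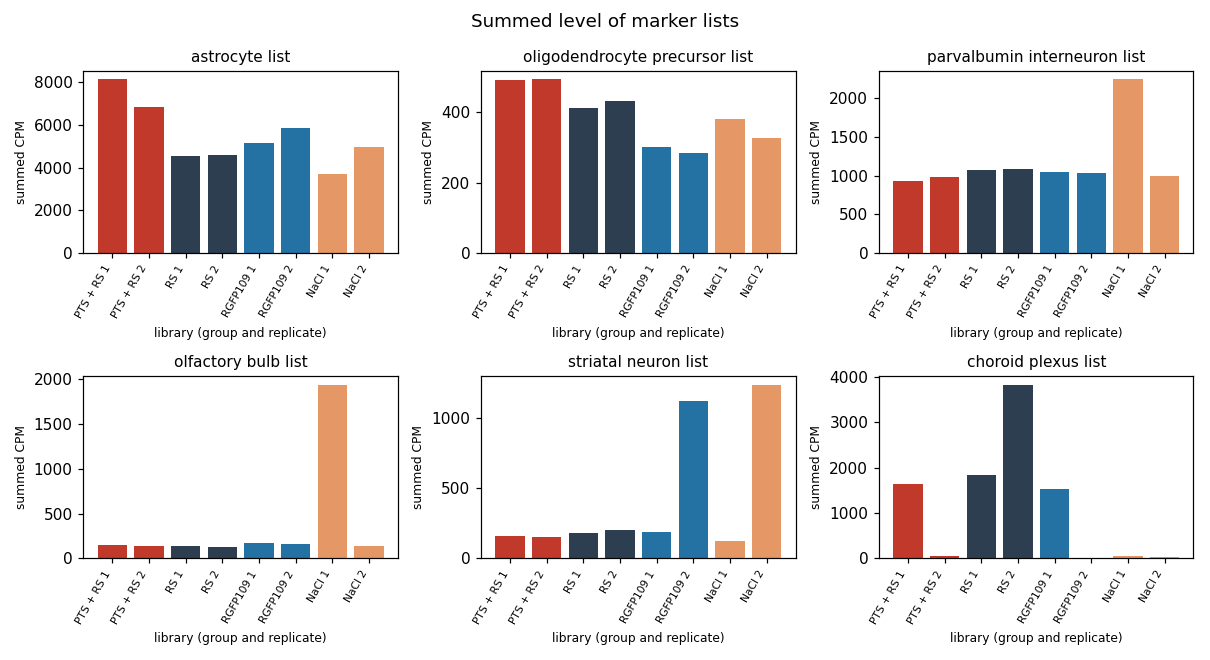
Summed CPM (vertical axes) of 6 marker lists in each of the 8 libraries (horizontal axes, group and replicate), 1 bar per library. NaCl replicate 1 stands out at 1940 CPM for the olfactory bulb list, and the 2 amygdala-labelled libraries at 1120 and 1240 CPM for the striatal list.

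Levels were compared between genes as deposited FPKM, which divides by gene length. Bcan (brevican) was highest, between 61.2 and 91.3 FPKM over the 8 libraries with a median of 78.6. Ncan (neurocan) followed with 27.7 to 51.3 (median 35.9). The adult link protein gene Hapln4 was at 13.9 to 36.5 (median 33.3), Cspg5 (neuroglycan C) at 23.3 to 30.6 (median 26.6), Tnr at 11.4 to 25.4 (median 19.5) and Ptprz1 (the receptor phosphatase whose secreted form is phosphacan) at 16.4 to 24.9 (median 18.5). Well below these lay Hapln1 at 3.43 to 5.03 FPKM, Vcan (versican) at 1.19 to 2.25, Tnc (tenascin-C) at 0.669 to 2.06 and Acan at 0.483 to 3.24. The ranges of Bcan and Ncan did not overlap, nor did those of Ptprz1 and Hapln1 or of Hapln1 and Vcan. Every other pair of neighbours in this order overlapped, and Ncan was above Hapln4 in only 4 of 8 libraries.

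**Figure D2:**
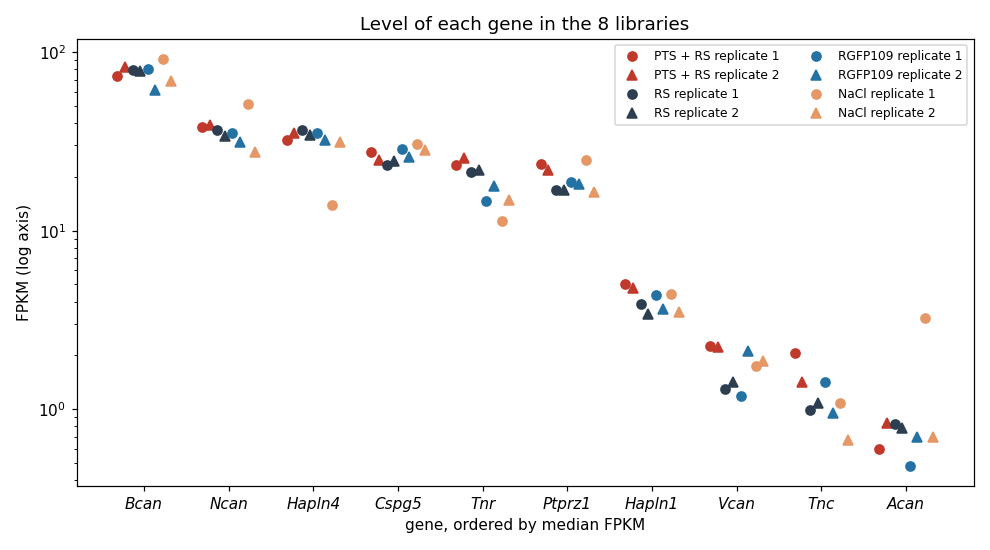
FPKM on a log axis (vertical) of the 10 genes, ordered by median (horizontal), with 1 point for each of the 8 libraries. Bcan lies above all others at 61.2 to 91.3 FPKM, and the points of NaCl replicate 1 leave those of the other libraries for Acan and Hapln4.

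Within the lectican family, Bcan made up 61.8% to 69.4% of the summed FPKM and Ncan 28.0% to 34.8%. Vcan held 1.97% and 1.79% in the PTS + RS libraries and 1.10% and 1.24% in the RS libraries. It held 1.01% and 2.23% in RGFP109 replicates 1 and 2, and 1.18% and 1.87% in NaCl replicates 1 and 2. Acan held 0.411% to 0.728% in 7 libraries and 2.20% in NaCl replicate 1.

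Setting PTS + RS against RS asks what a cortical infarct adds to restraint stress. Vcan and Ptprz1 rose in the PTS + RS group, by 1.65-fold and 1.34-fold, and the abundant lecticans Bcan and Ncan did not pass the test. Past the threshold (adjusted p under 0.05 over all 17581 tested genes, edgeR's quasi-likelihood test) were 2 of the 10 genes, both higher. Over all tested genes 3.55% were past it in either direction and 2.96% were higher. At an unadjusted p under 0.05 in edgeR, 1811 of the 17581 genes were higher and 1328 lower, the background for such counts in the lists below. The median log2 fold change was 0.16 over the 10 genes and -0.0015 over all genes. The 10 genes were chosen with earlier results of these data known, so these figures only describe them. In bulk tissue, fewer cells of a type and less RNA per cell cannot be told apart. The labels name the libraries replicates without saying that they come from separate mice, so the p-values measure the spread between these libraries.

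Vcan encodes versican, the lectican of immature matrix and of oligodendrocyte precursors. It was at 32.8 and 32.4 CPM in the PTS + RS libraries and at 18.9 and 20.6 CPM in the RS libraries. Both libraries of the PTS + RS group lay well above both of the RS group, and the replicates of each were close together. The log2 fold change (with its standard error, SE) of Vcan was 0.72 (SE 0.11, adjusted p = 0.0166, edgeR). As a fold, the 95% interval ran from 1.38 to 1.97.

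Bcan, the main lectican of the adult brain, was at 300.1 and 336.5 CPM with PTS + RS and at 324.0 and 318.1 CPM with RS. The groups overlapped, with a log2 fold change of -0.01 (95% interval -0.215 to 0.189, adjusted p = 0.962, edgeR). Ncan was at 276.2 and 283.7 CPM against 263.5 and 246.0 CPM, a log2 fold change of 0.14 (interval -0.05 to 0.32, adjusted p = 0.409, edgeR). The interval for either gene left out a change of 1.5-fold in each direction. Acan, the lectican that defines perineuronal nets, had few reads, 77 and 105 counts against 112 and 93. Its CPM of 4.50 and 6.28 spanned the 6.18 and 5.87 of the RS libraries. The interval for its fold, 0.612 to 1.31, was the widest on the low side among the 10 genes.

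Ptprz1, a chondroitin sulfate-bearing phosphatase of astrocytes and oligodendrocyte precursors, was at 338.3 and 312.4 CPM with PTS + RS and at 243.0 and 241.0 CPM with RS. The groups were clearly apart, with a log2 fold change of 0.43 (SE 0.078, adjusted p = 0.0342, edgeR). The interval of the fold was 1.18 to 1.53. Cspg5, the other transmembrane proteoglycan, was at 278.7 and 251.9 CPM against 236.3 and 247.0 CPM. Here the groups were separate by a narrow margin and the test was not passed, with a log2 fold change of 0.13 and an adjusted p of 0.45 by edgeR's quasi-likelihood test.

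Tnc, the tenascin of developing and injured tissue, had the largest fitted change. It was at 16.2 and 11.1 CPM in the PTS + RS libraries against 7.73 and 8.46 CPM in the RS libraries. The libraries of PTS + RS differed from each other by more than either RS library differed from the nearer of them, and the log2 fold change of 0.75 (SE 0.21) had an adjusted p of 0.125 (edgeR). Without a filter on low counts Tnc passed, at 0.75 with an adjusted p of 0.00359 (edgeR), among 1835 of 30105 genes. Tnr, the tenascin of mature perineuronal nets and nodes, was at 302.3 and 328.3 CPM against 274.0 and 281.4 CPM, a log2 fold change of 0.18 with an adjusted p of 0.288 (edgeR). In FPKM, Tnr exceeded Tnc 11.3-fold and 17.9-fold with PTS + RS, and 21.4-fold and 20.1-fold with RS.

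Of the link proteins, Hapln1 was at 29.9 and 28.1 CPM with PTS + RS and at 22.9 and 20.3 CPM with RS. The groups did not overlap, and the log2 fold change of 0.43 (SE 0.12) had an adjusted p of 0.114 (edgeR). Hapln4, which stabilises nets in the adult, was at 127.7 and 139.6 CPM against 144.1 and 135.2 CPM, with overlapping groups and a log2 fold change of -0.06 (interval -0.255 to 0.128). The ratio of Hapln4 to Hapln1 in FPKM was 6.42 and 7.47 in the PTS + RS libraries and 9.46 and 10 in the RS libraries.

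**Figure D3:**
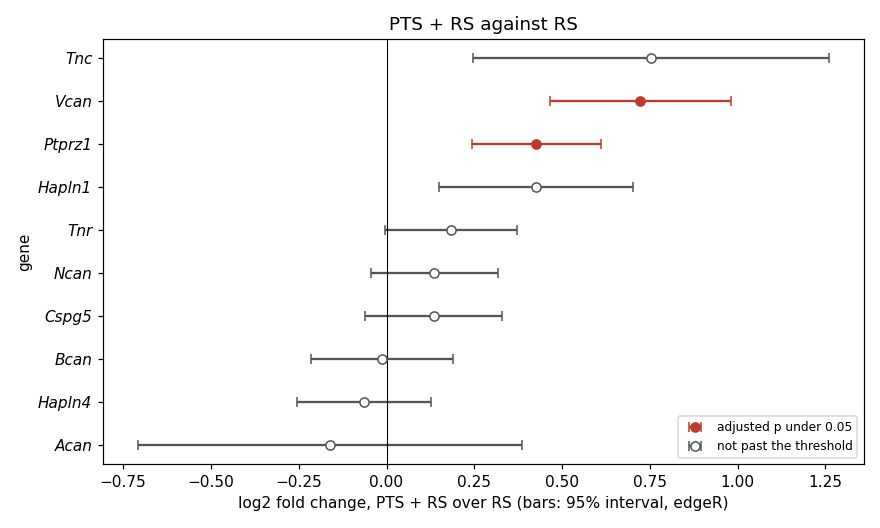
Log2 fold change of PTS + RS over RS (horizontal axis) for the 10 genes (vertical axis), with bars for the 95% interval of edgeR's quasi-likelihood fit and filled points for an adjusted p under 0.05. Vcan at 0.72 and Ptprz1 at 0.43 are the 2 filled points, and Tnc has the highest value with a wider bar.

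In 7 of the 10 genes the libraries of the groups did not overlap, each time with PTS + RS higher, whereas 50.2% of all tested genes were separated in either direction. Leaving out a library moved the calls, in fits where the lone library of a group is assumed to vary like the other group. Without RS replicate 1, 1.23% of all genes were past the threshold and 0 of the 10. Vcan was then at 0.66 (adjusted p = 0.193, edgeR) and Ptprz1 at 0.43 (adjusted p = 0.362, edgeR). Without RS replicate 2, 1.42% of all genes and again 0 of the 10 were past it. Vcan was at 0.78 (adjusted p = 0.104, edgeR) and Ptprz1 at 0.42 (adjusted p = 0.465, edgeR), so that the fold changes stayed near their values with all 4 libraries. Without PTS + RS replicate 2, the library low in choroid plexus markers, Cspg5, Tnc and Hapln1 passed as well, with 16.3% of all genes past the threshold. Without PTS + RS replicate 1 Tnr passed as well, with 9.69% of all genes past it.

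Markers of astrocytes and microglia rose beside these genes. Of 10 astrocyte markers, 6 were past the threshold and all higher, with a median log2 fold change of 0.59, and their sum was 6860 and 8140 CPM with PTS + RS against 4560 and 4600 CPM with RS. Gfap rose by 2.28 and Aqp4, the astrocyte water channel, by 1.01 on the log2 scale. Aldh1l1 at 0.16 (adjusted p = 0.616, edgeR) and Sox9 at 0.08 (adjusted p = 0.783, edgeR) did not pass, with overlapping groups. Of 8 oligodendrocyte precursor markers, 1 was past the threshold, Gpr17 at 0.77, while Pdgfra, which defines these cells, was at 0.05 with an adjusted p of 0.84 (edgeR). Of 8 oligodendrocyte markers, 0 were past the threshold by edgeR and 1 each by DESeq2 and limma-voom, with 2 at an unadjusted p under 0.05 in edgeR and a median of 0.22. The sum of the precursor list was 492 and 493 CPM against 413 and 431 CPM. All 8 microglia markers rose, with a median of 1.88. The part of any of these cells in the rise of Vcan and Ptprz1 was not tested.

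The wider matrix pathway was followed with lists of genes that make, bind or cut the same polymers. Of 12 genes of hyaluronan synthesis, binding and breakdown, 10 were tested and 2 were higher by edgeR and by DESeq2, but 1 by limma-voom. Cd44, the main hyaluronan receptor, was at 28.4 and 17.6 CPM with PTS + RS and at 5.41 and 3.15 CPM with RS, a log2 fold change of 2.41 (SE 0.31, adjusted p = 0.00897, edgeR). Hmmr, a hyaluronan-binding protein also tied to mitosis, had 42 and 26 counts against 8 and 3 counts, with an adjusted p of 0.049 (edgeR). The median of the list was 0.06, so that the other members were spread on both sides of 0.

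Among 24 other proteoglycan core proteins, all tested, 1 was past the threshold by edgeR, and higher. DESeq2 called 2 and limma-voom 1, and 4 had an unadjusted p under 0.05 in edgeR. The gene past it by edgeR was Srgn, the proteoglycan of granules in blood-derived cells. It was at 16.6 and 11.4 CPM against 5.02 and 4.04 CPM, with a log2 fold change of 1.63 (adjusted p = 0.0152, edgeR). The lowest was Sdc1, at -0.67 with an adjusted p of 0.404 (edgeR), and the median of the list was 0.15. Cspg4 (NG2), the proteoglycan of oligodendrocyte precursors, was at 0.18 with an adjusted p of 0.378 (edgeR).

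The enzymes that build and sulfate chondroitin chains did not pass the test. Of 22 such genes 21 were tested and 0 were past the threshold by edgeR, DESeq2 or limma-voom, with a median of -0.00099. At an unadjusted p under 0.05 in edgeR were 4 of the 21, and 1811 higher and 1328 lower of all 17581 genes. Chsy3, a chain polymerase, was lowest at -0.78 (adjusted p = 0.0763, edgeR) and Chst14, a dermatan sulfotransferase, highest at 0.56. Among 9 receptors of chondroitin sulfate proteoglycans and ligands of Ptprz1, 0 were past the threshold by the same tools and 0 had an unadjusted p under 0.05 in edgeR, with values from -0.11 for Rtn4rl1 to 0.14 for Mdk. Of 6 aggrecanase-type Adamts genes, whose products cut lecticans, 0 passed by the same tools, with 2 at an unadjusted p under 0.05. Adamts1 was at -0.53 (adjusted p = 0.09, edgeR) and Adamts9 at 0.42. Among 8 genes of parvalbumin interneurons, the cells most often wrapped in nets, 0 passed by the same tools and 1 had an unadjusted p under 0.05 in edgeR, with a median of -0.17. Syt2 was lowest at -0.50 (adjusted p = 0.232, edgeR) and Kcnc2 highest at 0.04.

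The comparison of RGFP109 with NaCl asks what the inhibitor changes in PTS + RS mice. The microglia markers summed to 280 to 562 CPM in these libraries. They summed to 1070 and 1260 CPM in the PTS + RS libraries and to 277 and 303 CPM in the RS libraries. Gfap was at 290 to 688 CPM here, against 1450 and 2060 CPM with PTS + RS and 354 and 372 CPM with RS. These differences were not tested. Of the 10 genes, 0 passed the test and 0 had an unadjusted p under 0.05. The background was the same: of 17565 tested genes, 0 (0%) were past the threshold by edgeR, DESeq2 or limma-voom, with 88 higher and 118 lower at an unadjusted p under 0.05 in edgeR. A replicate block left edgeR at 0 genes as well. The median log2 fold change was -0.13 over the 10 genes and -0.016 over all. The spread between replicates was wide, with a biological coefficient of variation of 32.1% against 11.4% among the PTS + RS and RS libraries. In 2 of the 10 genes, Acan and Hapln4, the libraries of the groups did not overlap, while 26.6% of all genes were so separated.

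Acan was at 3.62 and 5.19 CPM in RGFP109 replicates 1 and 2, and at 24.5 and 5.22 CPM in NaCl replicates 1 and 2. Only NaCl replicate 1 was high, and RGFP109 replicate 1 was the lowest of all 8 libraries. The log2 fold change of -1.75 (interval -3.74 to 0.245, adjusted p = 1, edgeR) became -0.25 without NaCl replicate 1. Between the replicates numbered 1 the log2 ratio of RGFP109 to NaCl was -2.76, and between those numbered 2 it was -0.01 (95% interval -0.416 to 0.401, exact binomial, counting error only).

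Hapln4 went the other way in the same library. It was at 138.6 and 125.5 CPM with RGFP109, and at 55.2 and 123.7 CPM with NaCl. The log2 ratio was 1.33 between the replicates numbered 1 and 0.02 between those numbered 2. The fitted value of 0.56 (interval -0.488 to 1.61) was 0.09 without NaCl replicate 1. Hapln3, the link protein gene next to Acan, was at 9.04 CPM in NaCl replicate 1 and at 0.883 to 2.35 CPM in the other 7 libraries.

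Bcan, at 327.6 and 248.4 CPM with RGFP109 against 375.4 and 280.4 CPM with NaCl, and Ncan, at 254.5 and 226.7 CPM against 373.8 and 200.2 CPM, were both highest in NaCl replicate 1. So was Ptprz1, at 358.8 CPM there against 234.1 to 267.3 CPM in the other 3 libraries. Vcan was lowest in RGFP109 replicate 1 (the library with 1520 CPM of choroid plexus markers against 16 to 46.1 CPM in the other 3), at 17.3 CPM, and was at 30.8, 25.5 and 26.9 CPM in RGFP109 replicate 2 and NaCl replicates 1 and 2. The fitted log2 fold changes of these 4 genes lay between -0.25 and -0.13.

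Tnc and Tnr were higher with RGFP109 within each replicate number, although the groups overlapped. Tnc was at 11.1 and 7.39 CPM with RGFP109 and at 8.53 and 5.22 CPM with NaCl, with log2 ratios of 0.38 and 0.50 within numbers 1 and 2. Tnr was at 189.1 and 229.3 CPM against 147.8 and 191.5 CPM, with log2 ratios of 0.36 and 0.26. The fitted values were 0.42 (interval -0.572 to 1.42) for Tnc and 0.30 (interval -0.273 to 0.878) for Tnr, so that changes of more than 1.5-fold were not left out for either gene. In FPKM, Tnr was at 11.4 to 17.8 in the RGFP109 and NaCl libraries. It was at 21.2 to 25.4 in the PTS + RS and RS libraries, and this difference was not tested. NaCl replicate 1, in the ratio of number 1, had the lowest Tnr of the 8 libraries. Without it the fitted values were 0.81 for Tnc and 0.12 for Tnr. Bcan and Cspg5 were lower within each number. The log2 ratios of Bcan were -0.20 and -0.18 and those of Cspg5 -0.11 and -0.15, with counting intervals below 0 in each case. Without NaCl replicate 1 the fitted values were 0.03 for Bcan and -0.07 for Cspg5. Hapln1 had log2 ratios of -0.03 and 0.04 with intervals that held 0. The share of all genes with the same direction within both numbers was not counted.

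**Figure D4:**
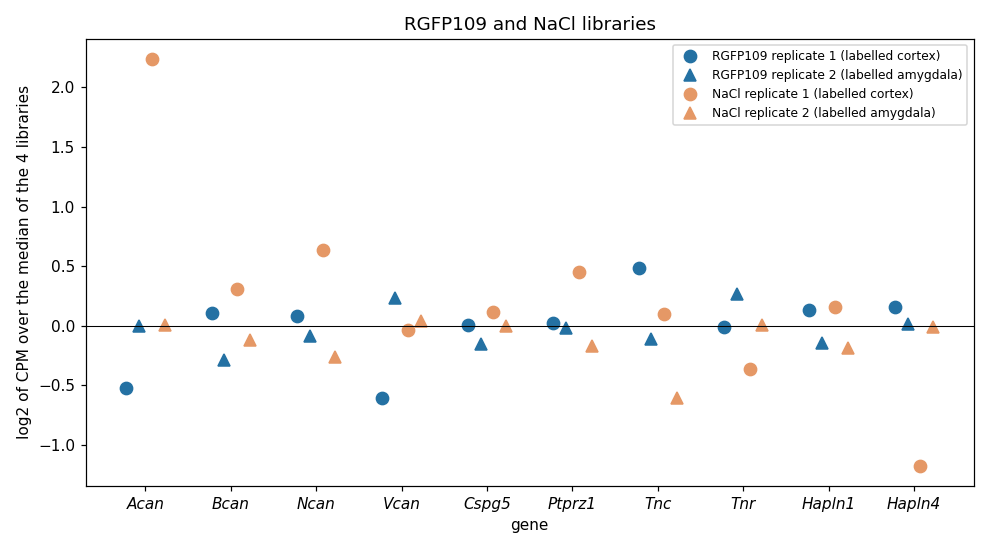
Log2 of the CPM of each RGFP109 and NaCl library over the median of the 4 libraries (vertical axis) for the 10 genes (horizontal axis), circles for libraries labelled cortex and triangles for those labelled amygdala. NaCl replicate 1 lies far above the others for Acan (24.5 CPM) and far below for Hapln4 (55.2 CPM).

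In this table the wider lists had 0 genes past the threshold by edgeR, DESeq2 or limma-voom, and their medians lay between -0.13 for the hyaluronan genes and 0.26 for the parvalbumin interneuron genes. At an unadjusted p under 0.05 in edgeR were 1 Adamts gene and 2 other proteoglycans. The sum of the interneuron list was 2240 CPM in NaCl replicate 1 against 1000 to 1050 CPM in the other 3 libraries. Within it, the GABA-synthesising enzyme gene Gad1 was at 1570 CPM there and Pvalb, the calcium buffer that names the cells, at 6.14 CPM against 23.1 to 39.1 CPM.

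The tissue labels of the same 4 libraries gave a last comparison, amygdala-labelled against cortex-labelled. None of the 10 genes passed the test, nor did any of the 17565 genes in edgeR or limma-voom (0%), although DESeq2 called 416 genes, 0 of them among the 10. At an unadjusted p under 0.05 in edgeR, 1197 genes were higher and 773 lower, and 0 of the 10 genes were among them. In 8 of the 10 genes the libraries did not overlap, against 44% of all genes. Tnr and Vcan were higher with the amygdala label, and Bcan, Ncan, Cspg5, Ptprz1, Tnc and Hapln1 were at lower CPM, with log2 fold changes from -0.64 for Tnc to 0.43 for Vcan.

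Since NaCl replicate 1 and RGFP109 replicate 1 share the cortex label but not their marker genes, each was left out in turn. Against RGFP109 replicate 1 alone, Vcan was past the threshold at a log2 fold change of 0.75 and Tnc at -0.80 (adjusted p = 0.00351 and 0.0314, edgeR), 2 of 10 genes with 13.5% of all genes past it. Against NaCl replicate 1 alone, 6 of 10 were past it with 28.3% of all genes, among them Acan at -2.23 and Hapln4 at 1.17. In both fits the lone cortex-labelled library is assumed to vary like the amygdala-labelled pair. The values of Acan and Hapln4 changed sign between the fits, to 0.54 and -0.14 without NaCl replicate 1.

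Across the 8 libraries, with each table centred on its own mean, the 10 genes did not vary as a unit. The Pearson correlation of log2 CPM between Ptprz1 and Hapln1 was 0.867, and 0.924 without NaCl replicate 1. That between Tnc and Hapln1 was 0.851 and 0.867. Acan and Hapln4 were at -0.956 over 8 libraries but at -0.07 without NaCl replicate 1, so that this relation rests on that library. Among 16926 genes tested in both tables, those most like Vcan were Atp10a (0.98), Gm44562 (0.979) and Gm20274 (0.974), and those most like Ptprz1 were Fchsd2 (0.995), Hsd17b11 (0.99) and Sec24b (0.985). The correlations with these other genes were computed only with NaCl replicate 1 included, the library in which Ptprz1 was highest. All these correlations are descriptions over libraries that share groups and tissue.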

How the data were processed

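RNA-seq libraries of mouse brain were analysed from 2 deposited tables. Per the methods and the submitters' processing notes, the authors aligned reads to GRCm38 with STAR 2.4.0, and the deposited counts are reads per gene from HTSeq 0.6.1 without normalization. The deposited FPKM values were calculated by the authors from these counts and the gene length. The labels name a directional kit and the methods another, and the strand setting of the counting is not given in the sources used here. Of the 10 genes, 6 overlap other listed genes, which had at most 221 counts over 4 libraries. Columns with the authors' own fold changes, p-values and group means were not used.

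Genes were filtered with filterByExpr (minimum count 10 and total 15), normalized by TMM within each table and tested by edgeR 4.0.16 in R 4.3.3, with Benjamini-Hochberg adjustment over all tested genes. CPM use the normalized library size. Limma 3.58.1 (voom) and DESeq2 1.42.0 were alternatives, as were another size factor, no filter, a log2 fold limit of 1, a replicate block and leaving out each library. Figures used matplotlib 3.10.9 in Python 3.11.15. In data simulated from the PTS + RS and RS libraries (17581 genes), 80% of 2-fold and 98% of 4-fold changes were recovered, against 4% and 57% for RGFP109 against NaCl (17565 genes). False calls were 11 and 3. Every simulated gene had the same biological coefficient of variation, without the tissue differences between libraries. Recovery in the real data can therefore differ, and changes smaller than 2-fold were not simulated. The chi-square per gene between replicates was 4.6 to 75.5, above sampling noise. For RGFP109 and NaCl the replicate numbers pair the libraries by their tissue label, and the deviations of same-numbered libraries had a correlation of 0.277. The members and lists were chosen with earlier results of these data known, and the olfactory bulb list after the data were seen. All members were named. Of each list, genes past the threshold or else the largest rise and fall were named, with a few defining markers added after their values were seen. For members past the threshold, the 3 genes with the highest correlation were named.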

Additional observations from a re-analysis of the deposited data

Results flagged for a closer look

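Between RGFP109 and NaCl, 3 genes moved in opposite directions in the libraries numbered 1 (labelled cortex) and those numbered 2 (labelled amygdala), each by more than counting error, and the difference between the numbers was not tested since there is 1 library of each kind. The log2 ratio of RGFP109 to NaCl was -0.56 against 0.18 for Ncan, -0.57 against 0.19 for Vcan and -0.43 against 0.15 for Ptprz1. NaCl replicate 1, which is in the first ratio of each gene, is the library with 1940 CPM of olfactory bulb markers. For Vcan the library farthest from the other 3 was RGFP109 replicate 1, at 17.3 CPM. Replicates of a group also differed by more than counting error, with a chi-square per gene of 34.5 for RGFP109 and 75.5 for NaCl. The share of all genes with opposite directions beyond counting error was not counted. Whether the pattern is particular to these 3 genes was therefore not tested.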

How the results depend on the processing

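For PTS + RS against RS, 624 genes were past the threshold. Without a filter on low counts 1835 were, with 3 of the 10 members (Tnc added). With a log2 fold limit of 1, 389 were, and Vcan at 0.72 and Ptprz1 at 0.43 fell under that limit. With 1 library left out the count was 216 to 2866 genes, and 0 to 5 of the 10 members. With 1 library left out, values that changed sign ranged from -0.42 to 0.0596 for Acan and from -0.10 to 0.0674 for Bcan. The replicate block gave 915 genes and the same number of members, 2, and the same-numbered libraries had a correlation of deviations of 0.041, so they share only a number there. For RGFP109 against NaCl, 0 genes were past the threshold and 0 with the replicate block, and 0 to 8 with 1 library left out. Values that changed sign then ranged from -0.40 to 0.0315 for Bcan, -0.63 to 0.26 for Ncan, -0.60 to 0.23 for Vcan, -0.44 to 0.16 for Ptprz1 and -0.15 to 0.18 for Hapln1. For amygdala-labelled against cortex-labelled libraries, DESeq2 gave 416 genes, no filter 13, and leaving out 1 library 0 to 4977 genes and 0 to 6 members, with Acan from -2.23 to 0.54 and Hapln4 from -0.14 to 1.17. The cause of these changes was not tested. Acan, with 57 to 431 counts, is the member most limited by depth.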
